A study of Schmidtea mediterranea with 40 samples.

Results

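Adult sexual *Schmidtea mediterranea* carried a set of transcripts that were close to absent from yolk, from every embryonic stage sampled and from asexual adults. The set was taken from a table of 35262 transcripts measured by RNA-Seq in 40 samples, in RPKM, a read count scaled by transcript length and by library size. A transcript was kept when it averaged at least 10 RPKM in sexual adults (SX) and when the mean of each of the 9 other groups was at most 0.1 of that level. Of 6744 transcripts with an SX mean of at least 10 RPKM, 1021 met both conditions, and the 300 with the highest SX mean are described here as the sexual adult transcripts. The members were thus chosen by the mean RPKM of all 10 groups, and their high level in SX and low level elsewhere are given as a description without a test.

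There were 4 samples in each of 10 groups, and each sample was the material of a single animal, embryo or capsule. SX samples were intact, virgin, sexually mature hermaphrodites of the sexual biotype, and C4 samples were intact adults of the asexual clonal strain CIW4. Yolk (Y) came from single capsules without a visible embryo, which the labels tag as day 0 but describe as 8 d old, and the embryos, S2 at 2 d, S3 at 3 d, S4 at 4 d, S5 at 6 d, S6 at 9 d, S7 at 10 d and S8 at 14 d after capsule deposition, came from outbred sexual animals. Libraries were made from 100 ng of RNA for S2 and S3 and from 500 ng for all other groups. No group was treated, and no genetic change was introduced in any. The SX libraries were sequenced in a run of their own, so that sexual maturity and sequencing run cannot be told apart in any comparison of SX with the rest. C4 adults are descendants of one clone, so that biotype, strain and reproductive state also differ together.

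Planarians of the sexual biotype are hermaphrodites that bear testes, ovaries, yolk glands and a copulatory apparatus, all of which mature only after hatching and growth. Oocytes hold little yolk, and yolk cells made by the yolk glands (vitellaria) are packed beside the zygotes into the egg capsule. Asexual animals keep germ cell precursors but form no mature gonads or accessory organs, and they multiply by fission. Development of spermatids, the haploid cells that elongate into sperm, takes place in testis lobules and depends on genes that in many animals are not used elsewhere.

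Reads on transcripts ranged from 5732627 to 17479851 per library, and from 12529533 to 16238210 in SX. The value of a single read differed widely between groups: on a transcript of 1 kilobase it was worth 0.273 to 0.517 RPKM in the 4 Y libraries and 0.0338 to 0.0424 RPKM in S8. Y libraries held 9543632 to 12523549 reads, but their sizes carry normalization factors (TMM, which set aside the most extreme transcripts) of 0.203 to 0.292, against 2.02 to 2.14 in S8. Low values in Y therefore rest on very few reads, and a fold change between Y and another group depends on these factors. One library stood apart for these transcripts. SX replicate 1 held the lowest of the 4 SX values in 295 of the 300, and the spread between SX animals is given with and without it. The SX means, the mean share of reads and the fold values over a floor include it. In whole animals, fewer cells of a type and less RNA per cell cannot be told apart.

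The 300 transcripts took up 5.01% ± 1.60 (SD, n = 4) of all transcript reads in SX. Replicates 1 to 4 of SX held 2.80%, 6.34%, 6.00% and 4.91%. Replicate 1 was thus the lowest, and the other 3 lay close together. In C4 the share was 0.0148% ± 0.000734, and in S8 it was 0.0140% ± 0.000939 (SD, n = 4 each). Shares in S7 and S6 were 0.011% ± 0.00226 and 0.0102% ± 0.00138, in S5 0.00607% ± 0.0018 and in S4 0.00287% ± 0.00172. S3 and S2 held 0.00275% ± 0.0012 and 0.00285% ± 0.0016, and Y held 0.000426% ± 9.9e-05. As a share of reads, the groups from S6 to C4 thus held more than those from Y to S4. The whole of this range was far under the lowest SX library. Summed RPKM, which carries the TMM factors, gave another order. S2, at 32.88 to 50.9, overlapped S6, at 41.15 to 46.91, and S7, at 43.46 to 52.89. Y stayed lowest outside SX, at 10.62 to 14.83, and C4 highest, at 77.03 to 93.03. Since the choice of transcripts capped every group outside SX, the order of the groups is a description.

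**Figure D1:**
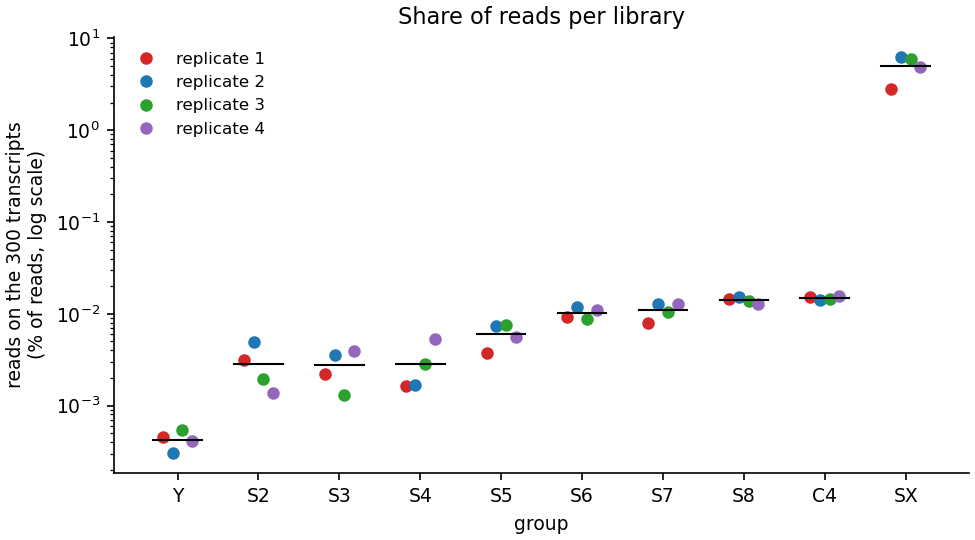
Share of transcript reads that fell on the 300 sexual adult transcripts, in percent on a log axis, for each of the 40 libraries by group. Coloured points are replicates 1 to 4 and the line is the mean of the group. SX lies at 2.80 to 6.34%, with replicate 1 lowest, and all other groups average at most 0.0148%.

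SX means ran from 28.1 to 1173 RPKM, with a median of 49.2. Of the 300 transcripts, 10 averaged at least 500 RPKM and 71 at least 100. Each was backed by 405 to 86399 reads over the 4 SX libraries, with a median of 6148. No single transcript dominated: the 10 highest held 16.5% of the set's SX reads, and the one with the most reads held 2.92%. The median length was 946 bases, against 1266 for all transcripts with an SX mean of at least 10 RPKM and 858 for the whole table. Of the 300, 161 (53.7%) were under 1000 bases long, against 36.4% of those 6744.

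The list ended at a limit of number and not at a gap in level. The last transcripts inside it, SMED30029182 and SMED30026300, averaged 28.2 and 28.1 RPKM in SX, and the first left out, SMED30008235, averaged 28.0. Near the limit on the other groups, SMED30002728 reached 9.96% of its SX mean in S6 and was kept. SMED30003873 reached 10.9% in C4 and SMED30001155 13.2% in S6, and both were left out. At the lower SX limit, SMED30022654 at 10.01 RPKM met the conditions and SMED30009946 at 9.983 RPKM did not.

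The highest transcript was SMED30006104, 430 bases long. Its SX values were 615, 1517, 1421 and 1138 RPKM in replicates 1 to 4. C4 had no read of it in any of 4 libraries, against 53891 reads in SX, so that its SX mean of 1173 ± 405 RPKM (SD, n = 4) was at least 17110-fold higher than the level of 3 reads over the whole C4 group. Yolk and embryos had 21 reads of it, spread over 13 libraries, with a highest group mean of 0.761 RPKM in S3. Neither this transcript nor 8 of the next 9 had a name in the tables used here.

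The next in order was SMED30017110, with SX values of 522, 1115, 1268 and 1016 RPKM and 10 reads in all other libraries together. SMED30008925 had 137, 1469, 1113 and 980 RPKM and thus the widest spread of the 10, with a coefficient of variation (SD over mean) of 0.610. In SMED30029231 the SX values were 325, 903, 841 and 699 RPKM. All 3 were lowest in replicate 1, as were the other 7 of the 10 highest. SMED30000951, with 361, 728, 752 and 603 RPKM, collected the most SX reads of all 300 on its 1330 bases. SMED30006063, the last of the 10, had 263, 637, 684 and 546 RPKM. Without replicate 1 the values of each of these transcripts stayed within a factor of 2 of each other, and all 4 animals stood far above the highest mean of any other group.

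**Figure D2:**
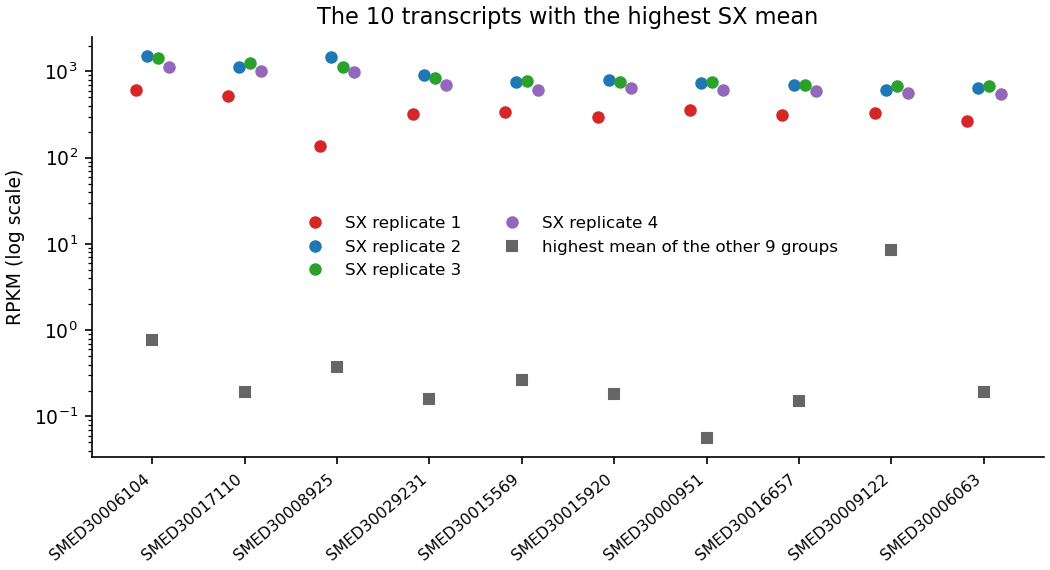
RPKM on a log scale of the 10 transcripts with the highest SX mean, in each of the 4 SX animals (coloured points) and, as a grey square, the highest mean among the other 9 groups. SX replicate 1 is the lowest point of all 10 transcripts, from 137 RPKM in SMED30008925 to 615 RPKM in SMED30006104.

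Of the 10, the one with a name was SMED30009122, *spermatid elongation defective 1* (*sed1*), a planarian gene named for its role in the elongation of spermatids. SX replicates 1 to 4 had 328, 607, 681 and 556 RPKM of it. S2 embryos held 12.2, 13.4, 1.86 and 0 RPKM, and S3 embryos 6.36, 21.4, 2.73 and 3.56 RPKM. In S4 the values were 1.98, 4.04, 2.25 and 2.60 RPKM. All 4 S4 values and all 4 S3 values were above the S5 mean of 0.205 RPKM, and S6 had no read. The transcript was thus measurable in early embryos, at a few percent of the SX level or less, then fell out of detection by S6 at this depth, and it averaged 0.0956 RPKM in C4.

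Names or protein matches could be given to few of the transcripts. Of the 300, 9 appeared among the 4214 transcripts of the study's annotated tables, which list transcripts chosen for their embryonic or stem cell expression, and 6 of these had a gene name or a best protein match. A best match names the most similar known protein and is not a test of function. Besides *sed1*, the 6 included 2 that match proteins of microtubules. SMED30002688 matched a tubulin alpha-3 chain, an alpha subunit of the microtubule. Its SX values were 247, 352, 378 and 324 RPKM. C4 had 1.40, 1.05, 0.856 and 1.51 RPKM and S8 1.81, 2.07, 0.402 and 0.564 RPKM, so that the asexual adults and the hatchlings overlapped. Alpha-tubulin genes are a family of close copies, and the reads of this transcript may be shared with them because a read was allowed up to 5 places. SMED30018906 matched the Sjoegren syndrome nuclear autoantigen 1 homolog, a microtubule-binding protein found at centrosomes and basal bodies in vertebrates. It had 26.9, 44.1, 45.3 and 36.6 RPKM in SX, no read in Y and S2, an S5 mean of 2.05 RPKM and a C4 mean of 0.216 RPKM.

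Both protein kinases with a name were also measurable in S6 and later. SMED30018644 matched tau-tubulin kinase 1, which in mammals phosphorylates tau and tubulin. It had 34.2, 78.1, 76.3 and 62.5 RPKM in SX. It averaged 1.62 RPKM in S5 and 3.29 in S6, then 4.59, 4.61 and 4.83 RPKM in S7, S8 and C4. The values of S7, S8 and C4 overlapped, far below the lowest SX animal. SMED30002728 matched a dual specificity tyrosine-phosphorylation-regulated kinase, a kinase that activates itself on tyrosine and phosphorylates its substrates on serine and threonine. Its SX values were 22.6, 55.7, 57.5 and 46.8 RPKM, and its S6 values were 4.73, 4.17, 4.86 and 4.44 RPKM. All 4 S6 values lay above the S5 mean of 0.915 RPKM. SMED30011468 matched cytoplasmic malate dehydrogenase, which interconverts malate and oxaloacetate. It had 35.5, 72.7, 63.6 and 54.9 RPKM in SX and highest other means of 1.89 RPKM in S4 and 1.55 RPKM in S5, against 0.386 RPKM in C4.

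Very little of the set was found outside SX. For 16 transcripts, no read occurred in any of the 36 other libraries, and 100 more had 1 to 10 reads in all of them together. The median over the 300 was 17.5 reads. SMED30023204, with 50.2, 155, 145 and 117 RPKM in SX, SMED30016920, with 51.8, 135, 137 and 108 RPKM, and SMED30014699, with 15.6, 101, 179 and 110 RPKM, are the highest of the 16 without a read. Against 3 reads over the C4 group, their SX means were at least 2025-fold, 4910-fold and 2274-fold higher. All 300 had their 4 SX values above all 36 other values, which held for 19.1% of the 6744 transcripts with an SX mean of at least 10 RPKM and which the choice of the 300 made likely.

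The highest mean outside SX was under 1% of the SX mean for 245 transcripts, 1 to 5% for 43 and 5 to 10% for 12, with a median of 0.158%. This highest mean was found in C4 for 93 transcripts, in S2 for 37, S8 for 31, S4 for 29, S5 for 26, S7 for 21, S3 for 20, S6 for 17 and Y for 10. Any read at all was found for 51 transcripts in Y, 125 in both S2 and S3, 131 in S4, 160 in S5, 183 in S6, 222 in S7, 230 in S8 and 242 in C4. Since deeper libraries detect more transcripts, these numbers follow depth as well as level and were not compared further.

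A small minority was expressed at 1 RPKM or more in another group. There were 33 such transcripts, none of which reached 10 RPKM, and the highest mean was 8.50 RPKM. C4 held 21 of them at that level, S6 14, S8 12, S7 11, S5 9, S4 7, S2 6, S3 5 and Y 1. Of the 33, 21 did so in at least 2 groups, 16 in at least 3, 5 in at least 5 and 0 in all 9. Outside SX the set had 32793 reads in all, of which 48.7% fell on 10 transcripts. SMED30024486 had the most, 3869. Its SX values were 47.4, 102, 96.9 and 75.4 RPKM, and it averaged 5.75 RPKM in S5, with all 4 S5 values above all 4 values of S6, S7, S8 and C4. SMED30018644 and SMED30002728, the 2 kinase matches above, followed with 3219 and 3093 reads.

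**Figure D3:**
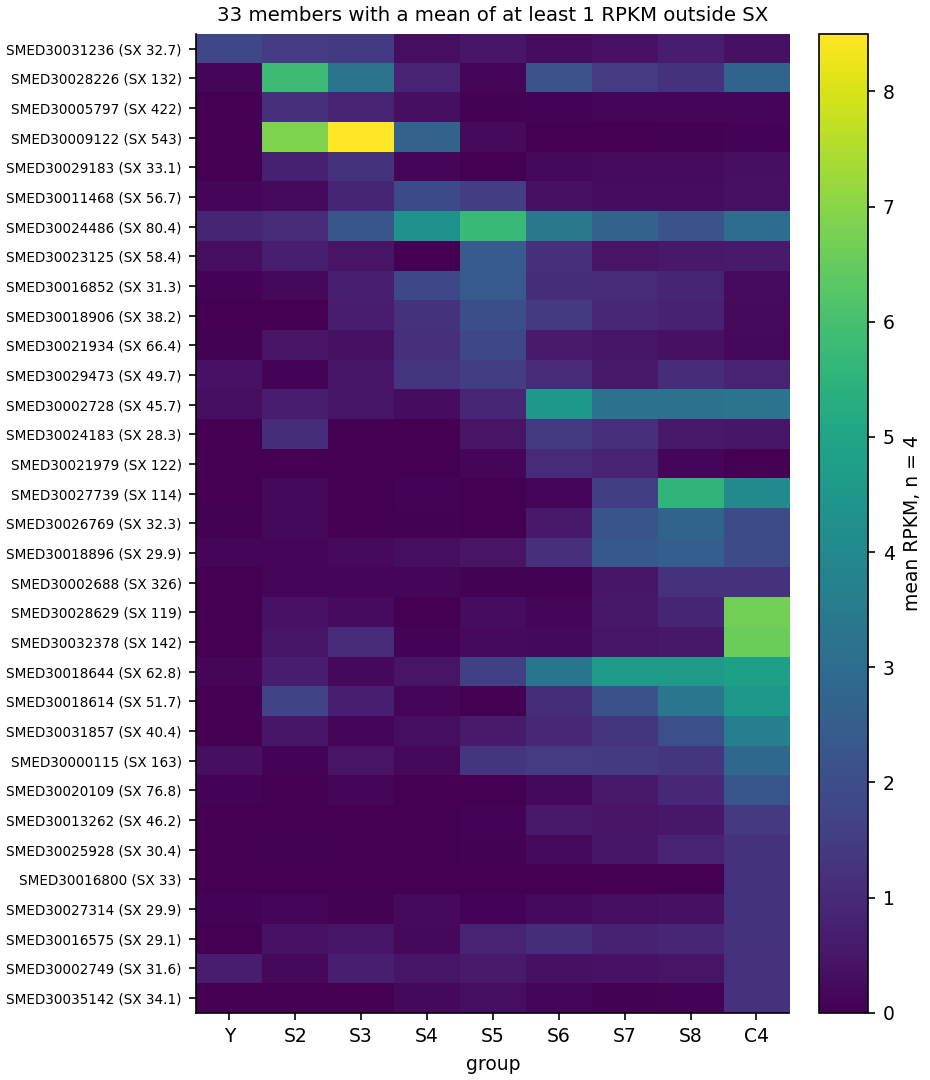
Mean RPKM (colour, n = 4 per group) of the 33 sexual adult transcripts with at least 1 RPKM in another group, over those 9 groups, with the SX mean beside each name. Rows are ordered by the group of their highest mean. C4 holds 21 of the 33 at 1 RPKM or more and Y holds 1, and the highest value is 8.50 RPKM.

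Most of the transcripts were lowest in the same sexual adult, replicate 1. The median coefficient of variation over SX was 0.350 (range 0.0424 to 0.886), against 0.128 for the 5723 transcripts that reached 10 RPKM in SX but did not meet the conditions. Without replicate 1 the medians were 0.110 and 0.0982. Replicate 1 had the lowest value for 295 of 300 transcripts (98.3%), for 706 of the 721 that met the conditions but fell below the limit (97.9%) and for 1990 of the 5723 others (34.8%). The share over all 6744 was 44.4%. Among the 300, the highest value was in replicate 3 for 183, in replicate 2 for 109, in replicate 4 for 5 and in replicate 1 for 3. The median ratio of replicate 1 to the mean of replicates 2 to 4 was 0.431 for the 300, 0.499 for the 721 and 0.979 for the others. These are values of single animals on scaled RPKM, and the part of library preparation, of RNA quality or of the state of the animal in them was not tested.

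**Figure D4:**
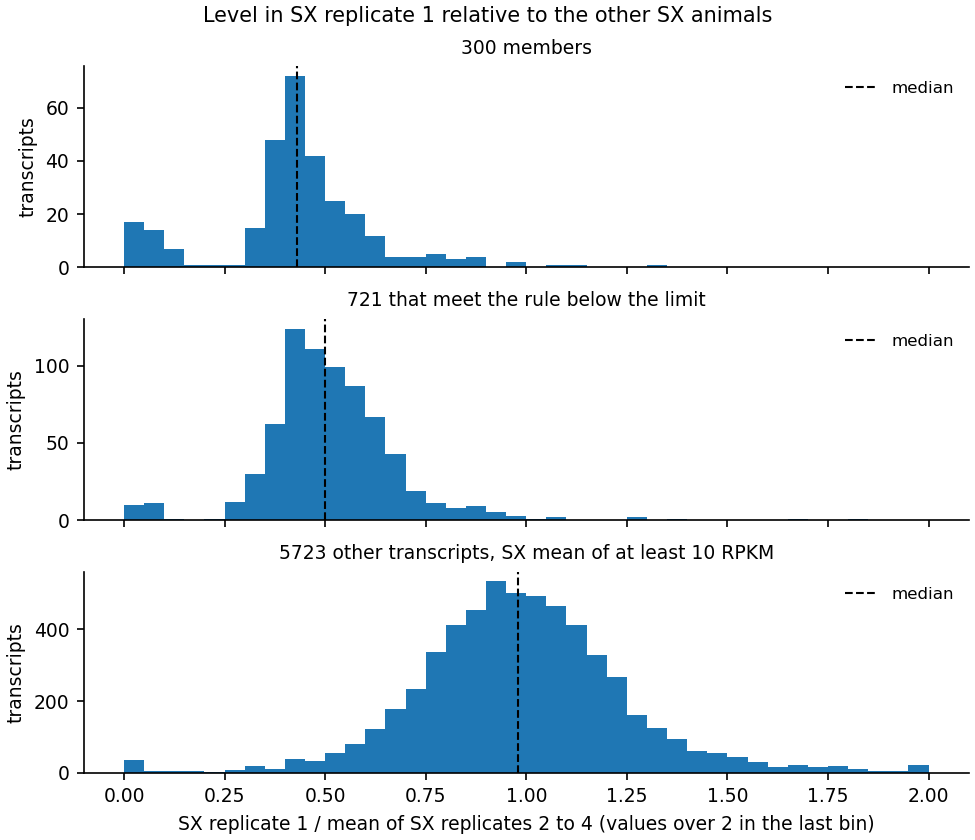
Number of transcripts by the ratio of SX replicate 1 to the mean of SX replicates 2 to 4, for the 300 sexual adult transcripts, the 721 that met the conditions below the limit and the 5723 others with an SX mean of at least 10 RPKM. Dashed lines are medians, at 0.431, 0.499 and 0.979.

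Within the 300 the ratio was spread unevenly. For 222 transcripts it was between 0.3 and 0.6, for 32 between 0.6 and 0.9 and for 5 at least 0.9. Another 31 were under 0.1, and 10 lay between 0.1 and 0.3. The 31 had a median ratio of 0.0484 (range 0.0139 to 0.0790) and median values of 4.43, 98.1, 61.6 and 86.1 RPKM in replicates 1 to 4. They were short: 30 of the 31 (96.8%) were under 1000 bases, against 47.5% of the 259 with a ratio of at least 0.3. The 31 and the 259 also differed in the order of the other animals, which the ratio did not use. Among replicates 2 to 4, replicate 2 was highest for 23 of the 31 and replicate 3 lowest for 19. For the 259, replicate 3 was highest for 175 and replicate 4 lowest for 249. As these groups were drawn from the values after they were seen, no test was made of either difference.

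The widest spread was that of SMED30031322, with 4.48, 135, 31.3 and 112 RPKM. SMED30034369 followed with 0.840, 73.3, 32.2 and 55.5 RPKM. In both, replicate 2 was highest and replicate 1 lowest, with replicate 3 the lower of the remaining pair. The least variable was SMED30005530, with 34.1, 30.8, 32.7 and 32.3 RPKM, where replicate 1 was the highest. SMED30027314 had 29.3, 32.3, 29.6 and 28.4 RPKM and SMED30015458 47.2, 54.1, 53.9 and 52.5 RPKM. A drop in replicate 1 was thus common to most of the set but not to each member.

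Transcripts of yolk showed a drop in the same animal. This set was chosen after the values were seen: 34 transcripts that were highest in Y at 100 RPKM or more, reached 10 RPKM in SX and had a C4 mean of at most 0.1 of that in SX. Yolk cells are made by the yolk glands, which sexual adults bear and C4 adults do not. Their median values in SX replicates 1 to 4 were 0.357, 44.7, 91.1 and 164 RPKM. The ratio of replicate 1 to the others was under 0.1 for 28 of the 34, with a median of 0.00245. The largest of them, SMED30030028, had 0.833, 2267, 4341 and 9391 RPKM in SX. Its C4 mean was 229.3 RPKM, above SX replicate 1, although C4 adults bear no yolk glands. SMED30022321 likewise averaged 82.57 RPKM in C4, against 0.3531 in replicate 1. Others went the other way, such as SMED30002911, with 1.494 RPKM in C4 and 1112 in replicate 1. The source of the reads in C4 and the part of the yolk glands in the drop were not tested. Replicate 4 was highest for 31 of the 34 and replicate 2 lowest of the other 3 for 31, which was not the usual order in either the 31 or the 259 sexual adult transcripts. The 784 other transcripts that were highest in Y at 100 RPKM or more and reached 10 RPKM in SX, with a C4 mean over 0.1 of that in SX, had a median ratio of 0.955.

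**Figure D5:**
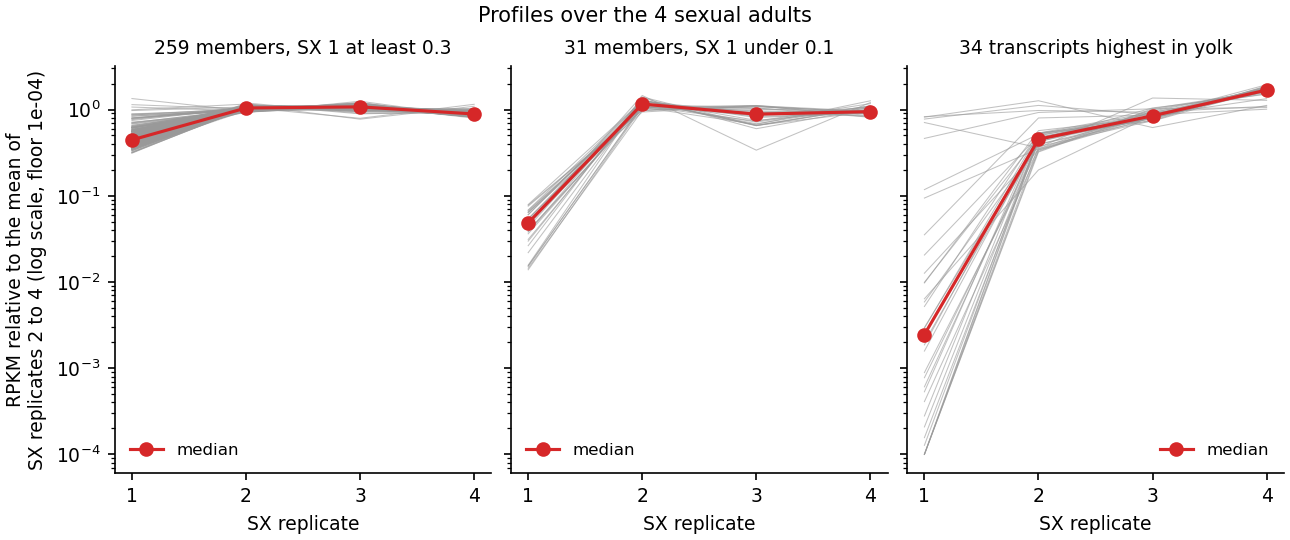
RPKM in SX replicates 1 to 4 relative to the mean of replicates 2 to 4, on a log axis with a floor of 1e-04, for 259 sexual adult transcripts with a ratio of at least 0.3 in replicate 1, for 31 with a ratio under 0.1 and for 34 transcripts highest in yolk. Each grey line joins the values of 1 transcript and the red line the medians, which in replicate 1 stand at 0.444, 0.0484 and 0.00245.

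As a list, transcripts named for germ cells were not low in replicate 1. Of 11 transcripts for germ cell and germ granule proteins, 8 averaged at least 1 RPKM in SX. For 7 of the 8, replicate 1 was the highest SX animal, and the median ratio was 1.32 (range 0.748 to 2.05). Among 21 with a best match to a sperm or axoneme protein, *sed1* apart, the median ratio was 0.838, with replicate 1 lowest for 13. For 22 of DNA replication, repair and the cell cycle it was 1.20, with replicate 1 highest for 12.

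Those lists were also compared between SX and C4. Several of the germ cell names, among them *piwi-1*, *piwi-2* and *piwi-3*, served in the study as markers of stem cells. The sperm and axoneme transcripts were found in C4 as well, so that neither list is a measure of the germ line alone. The names came from tables of transcripts with embryonic or stem cell expression, so that genes used only in the adult gonad had little chance to be listed. Between SX and C4, 0 of the 11 germ cell transcripts and 0 of the 21 sperm and axoneme transcripts passed an adjusted p of 0.05 (limma, Benjamini-Hochberg), against 14.8% higher and 11.6% lower over 33794 transcripts tested. Without adjustment 0 and 0 were under 0.05. Run with voom on the reads, 1 germ cell transcript was higher and 4 sperm and axoneme transcripts were lower in SX, against 20.9% higher and 20.1% lower over all transcripts. A limma fit of SX and C4 alone, which does not share the spread of the embryos, called 5 of the 11 (1 higher, 4 lower) and 14 of the 21 (2 higher, 12 lower), against 23.9% higher and 26.7% lower of 28714 transcripts. The median log2 fold changes, on log2(RPKM + 0.1), were -0.32 and -0.57, against 0 over all transcripts. *nanos* (SMED30034750), an RNA regulator needed for germ cells, had 9.08, 4.51, 4.71 and 4.08 RPKM in SX and a mean of 2.59 RPKM in C4, with an adjusted p of 0.16 (limma). *piwi-1* (SMED30007406), expressed in planarian stem cells and germ cells, averaged 89.9 ± 23.1 RPKM in SX and 98.8 ± 18.5 in C4 (SD, n = 4 each). Tektin-1, tektin-2 and tektin-4, filament proteins of cilia and flagella, also did not pass in either direction in the fit of all 40 samples. All 4 values of tektin-4 were lower in SX (9.916, 11.79, 11.98 and 14.16 RPKM) than in C4 (32.31, 27.15, 27.49 and 26.55 RPKM). Its log2 fold change was -1.25 (limma, adjusted p = 0.177), and those of tektin-1 and tektin-2 were 0.39 and -0.36. Of the 22 DNA replication, repair and cell cycle transcripts, 5 were higher in SX and 0 lower, with a median of 0.48. Over all transcripts the median was 0, and 14.8% were higher and 11.6% lower. Whether the list moved as a whole was not tested. Within the list, *PCNA* (SMED30004304) had a log2 fold change of 0.09. MCM6 (SMED30033600), a DNA replication licensing factor, averaged 12.1 RPKM in SX and 24.0 in C4, without overlap. Its log2 fold change was -0.99 (limma, adjusted p = 0.0963). Other settings were not run for this list. Mismatch repair *msh6* (SMED30027419) was higher by 1.77 on the log2 scale (adjusted p = 0.00191 by limma). *aurora kinase-1* (SMED30015999), a kinase of cell division, was higher by 1.61 (adjusted p = 2.9e-05 by limma). For the ribonucleotide reductase subunit M2 (SMED30026659) the difference was 1.28 (adjusted p = 4.35e-04 by limma). *aurora kinase-1* and subunit M2 were highest in Y, at means of 255 and 203 RPKM, against 12.2 and 30.3 RPKM in SX.

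What little of the set was present outside SX could be compared between groups that the choice did not set against each other. These tests used limma on log2(RPKM + 0.1) over the 36 samples without SX and 32283 transcripts. Only transcripts whose RPKM values added up to 1 or more in these samples were tested, which 157 of the 300 did and 143 did not. C4 and Y were each compared with S8, and S2 with Y. The first 2 comparisons share the S8 samples and the last 2 share the Y samples, so that they are not independent.

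Between asexual adults and S8, 13 of the 157 were higher in C4 (8.28%, against 9.03% of all transcripts tested) and 7 were lower (4.46%, against 6.77%), 20 in all against a background of 15.8%. The median log2 fold change was 0.07, against -0.06 over all transcripts. The counts were thus near the background. The largest increase was that of SMED30016800, with 1.73, 0.741, 1.37 and 1.18 RPKM in C4 and 0.0427, 0.0400, 0 and 0 in S8. With 129 reads in C4 and 2 in S8, SMED30016800 gave a ratio of summed reads, corrected for library size, of 67.5 (exact 95% interval 18.3 to 563, for counting error only). SMED30005131 had 1.18, 0.694, 0.997 and 1.11 RPKM in C4 and no read in any of the 32 libraries of yolk and embryos. Its C4 mean was at least 37.5-fold higher than 3 reads over the S8 group would give, and in yolk and embryos it was not detectable at this depth. In SX the same transcript had 16.8, 44.6, 45.2 and 38.2 RPKM. These are among 6 of the 13 that passed the filter only through their C4 values, so that a difference from S8 was built in and their values are a description.

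SMED30032378 had 7.50, 7.62, 5.37 and 5.88 RPKM in C4 and 0.336, 0.524, 0.654 and 0.625 in S8, higher in C4 by 3.41 ± 0.82 (SE; limma, adjusted p = 0.00326). Its SX values were 12.6, 232, 153 and 169 RPKM, so that SX replicate 1 lay closer to the C4 animals than to the other SX animals. SMED30035142 was higher in C4 by 2.91 ± 0.62 (SE; limma, adjusted p = 0.00113). Of the 13 higher in C4, 4 belonged to the 31 transcripts with a replicate 1 ratio under 0.1, of which 15 were tested. The share higher in C4 was 8.28% of all members tested and 9.03% of all transcripts tested. As the 31 were drawn after the values were seen, a link between them and C4 was not tested. Among those lower in C4, SMED30004879 had 0.264, 0.330, 0.441 and 0.281 RPKM in S8 and 0.0867, 0, 0 and 0 in C4. It passed the test (limma, adjusted p = 1.53e-05), on 17 reads in S8 and 1 in C4, a ratio of 16.2 (exact 95% interval 2.55 to 679, for counting error only). SMED30032132 fell by 1.78 on the log2 scale with an SE of 0.57 (adjusted p = 0.0295 by limma), a call that was lost in 10 of 45 alternatives. Of the 20 called, 18 did not overlap between the groups, against 90.4% of all 5100 transcripts called. Removing the filter gave 38 calls of 284 tested (13.4%, against 15.7% of all transcripts). Thinning all libraries to the smallest scaled library size, an alternative added after the values were seen, gave 8 (5.19%, against 8.4%).

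Between yolk and S8, 58 of the 157 were lower in Y (36.9%, against 61.6% of all transcripts tested) and 5 were higher (3.18%, against 12.3%), 63 in all against a background of 73.9%. Of the 58, 2 passed the filter only through S8, and of the 5, 1 passed only through Y, so that these differences were built in. The median log2 fold change was -0.72, against -1.58 over all transcripts. Transcripts this low cannot fall far on a scale with 0.1 RPKM added, but the part of this limit in the median was not tested. Among the 29 that reached 1 RPKM in at least 4 samples the median was -2.68, against -2.12 over all transcripts so filtered. Of the sexual adult transcripts, 1 averaged at least 1 RPKM in Y and 12 did so in S8. A lower level in Y was thus partly built into the choice of the 29, and their median is a description. Much of this comparison was beyond what the yolk reads could show: 42 of the 58 had no read in Y, and for 31 of the 58 fewer than 5 reads would be expected over the 4 Y libraries at the S8 level. Of the 58, 17 were called when all libraries were thinned. Quantile normalization turned the split to 68 higher and 8 lower, against 26.7% higher and 24.9% lower over all transcripts.

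The largest differences rested on more reads. SMED30027739 had 7.45, 6.69, 1.90 and 6.19 RPKM in S8, from 238 reads, and no read in Y. It was at least 8.47-fold higher in S8 than 3 reads over the Y group would give (adjusted p = 1.48e-09 by limma). The tau-tubulin kinase match SMED30018644 had 859 reads in S8 and 2 in Y, a ratio of 45.0 (exact 95% interval 12.4 to 372, for counting error only), and was lower in Y (limma, adjusted p = 1.31e-08). SMED30026769 had 2.31, 3.14, 3.03 and 2.48 RPKM in S8, from 407 reads, and 1 read in Y, a ratio of 42.6 (exact 95% interval 7.61 to 1688), and was lower in Y (limma, adjusted p = 3.2e-08). All 3 kept their calls in each of 46 alternatives. Among the 5 higher in Y, SMED30031236 did not overlap, with 1.54, 1.73, 1.68 and 2.30 RPKM in Y and 0.663, 0.755, 0.653 and 0.585 in S8 (log2 fold change 1.31 ± 0.41, SE; limma, adjusted p = 0.0049). Scaled by total reads it was lower in Y, by a log2 fold change of -1.45 (adjusted p = 1.89e-04 by limma), and none of the 5 calls higher in Y was kept. This transcript was singled out after its values were seen. SMED30020176, the largest of the 5 by fold change, had 1.20, 0, 1.48 and 0.582 RPKM in Y, and its call was lost in 6 of 45 alternatives, with the direction turned by total reads (log2 fold change -0.12).

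From yolk to S2 embryos, 18 of the 157 were higher in S2 (11.5%, against 17.5% of all transcripts tested) and 2 were lower (1.27%, against 7.13%), 20 in all against a background of 24.6%. Of the 18, 2 passed the filter only through S2, and of the 2 lower, 1 passed only through Y, so that these differences were built in. The median log2 fold change was 0.37, against 0.35 over all transcripts. SMED30028226 had 5.77, 2.74, 13.3 and 1.49 RPKM in S2 and 1 read in Y, against 60 reads in S2, a ratio of 35.2 (exact 95% interval 6.07 to 1411, for counting error only; limma, adjusted p = 1.4e-06). In this transcript the 4 S2 embryos differed among themselves more than S6 or C4 samples did. *sed1* had no read in Y and was at least 22.3-fold higher in S2 than 3 reads over the Y group would give (limma, adjusted p = 8.8e-05), although 1 of the 4 S2 embryos had none. SMED30018614 had 3.62, 0.414, 2.07 and 0.675 RPKM in S2, on 12 reads, and no read in Y, so that it was at least 2.48-fold higher than that floor (limma, adjusted p = 9.1e-05). It was found again from S6 to C4, with C4 values of 4.25, 5.88, 4.32 and 3.62 RPKM. Of the 18, 16 had no read in Y and 2 had all 4 S2 values above all 4 Y values, against 54% of all 5647 transcripts called higher. When all libraries were thinned 5 of the 20 calls remained, and without S2 replicate 2 the number that remained was 11.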

How the data were processed

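Single-end reads were mapped by the authors with Bowtie to the smed_20140614 transcriptome, with up to 2 mismatches and 5 hits per read, after CASAVA 1.8.2. The deposited values are RPKM per transcript, with library sizes scaled by TMM factors from edgeR. Near-identical transcripts can share reads. Reads per transcript were recovered from the steps of the RPKM values, with 100% whole within 0.001 reads, and gave depths and floors only, besides the voom and thinning alternatives.

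The transcripts and gene lists were chosen with earlier results of these data known. Groups came from the labels, and 0 sample columns were left out. Log2(RPKM + 0.1) was fitted in limma 3.58.1 (R 4.3.3), with a trend, 1 term for each group and without a block for replicates, for transcripts whose values added up to 1 RPKM or more. Adjustment of p followed Benjamini and Hochberg. Fits were tested on simulated data. Python 3.11.15, numpy 2.4.6, pandas 2.3.3 and matplotlib 3.10.9 served for tables and figures. SX was compared with C4 for the lists alone, and other settings were run only for the germ cell and the sperm lists. For a group with no read, 3 reads in that group as a whole served as the floor, which covers counting error only.

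Named transcripts were the 10 highest in SX, those with a gene name or best match, the 3 most and 3 least variable in SX, those at the limits, up to 4 per comparison and direction with the largest fold change, the 3 with most and the 3 highest with no reads outside SX, and the listed genes. Other settings tried were no filter, a stricter filter of 1 RPKM or more in 4 or more samples, pseudocounts of 0.01 and 1 RPKM, quantile normalization, total reads in place of TMM, the compared groups alone, a replicate block, voom, the study's thresholds, other limits for the list, each library left out in turn (for the gene lists, SX and C4 libraries) and, added after the values were seen, libraries thinned to the smallest scaled library size.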

Additional observations from a re-analysis of the deposited data

Results flagged for a closer look

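Among 82 groups of 4 values (the named transcripts in SX and in the groups compared, and the share of reads on the set in each group), 1 held a sample that lay apart from the other 3 by Dixon's test, which marks about 1 in 20 groups by chance. SMED30005797 had 0.557, 0, 0.478 and 3.74 RPKM in S2, where the gap below the highest embryo was 0.851 of the whole range. The 4 values rest on 8 reads in all.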

How the results depend on the processing

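Many values outside SX rest on a few reads, and Y values on TMM factors. By total reads 2 named calls in Y against S8 changed direction, SMED30020176 (log2 fold change -0.12) and SMED30031236 (-1.45). In C4 against S8 the 20 calls became 11 with a pseudocount of 0.01 RPKM, 38 without a filter, 4 with the stricter filter, 47 by total reads, 34 in both groups alone, 44 with voom, 8 thinned and 1 at the study's thresholds. In Y against S8 the 63 calls became 23 with the stricter filter, 108 by total reads, 41 in both groups alone, 102 with voom, 19 thinned and 8 at the study's thresholds. Higher and lower calls in Y, 5 and 58, were 0 and 108 by total reads, 68 and 8 by quantile normalization, 76 and 26 with voom and 1 and 18 thinned, and the median of all transcripts moved from -1.58 to 0.12 by quantile normalization, -0.32 with voom and -0.97 thinned. In S2 against Y the 20 calls became 9 with the stricter filter, 3 in both groups alone, 7 with voom, 5 thinned and 1 at the study's thresholds. Leaving out 1 library gave 15 to 22, 57 to 67 and 16 to 22 calls in these 3 comparisons. Between SX and C4, the 0 calls among germ cell and sperm transcripts became 4 with a pseudocount of 1 RPKM, 6 by quantile normalization, 19 in both groups alone and 5 with voom, and were 0 when each SX or C4 library was left out. The cause of these changes was not tested.

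The 1021 transcripts that met the conditions became 485 when every sample had to meet them, of which 253 of the 300 remained, and 946 to 1114 without 1 library, which kept 292 to 300. The median coefficient of variation of 0.350 ranged from 0.110 without SX replicate 1 to 0.429. In the study, each sequencing lane held a replicate of every group except SX, and whether the replicate number names the lane is not said. Same-numbered samples did not deviate together (16 pairs, r from -0.071 to 0.051), which cannot show whether the numbers pair samples. With the replicate block the calls were 20, 65, 22 and 0.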
